A study of Mus musculus with 4 samples.

Results

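RGS proteins (regulators of G protein signalling) bind the active alpha subunit of a heterotrimeric G protein and speed its hydrolysis of GTP, which ends the signal of the receptor upstream. In lymphocytes most of that signal comes from chemokine and sphingosine 1-phosphate receptors, which couple to Gi, so RGS levels set how strongly a cell migrates towards a chemoattractant and how long it stays in a tissue. The 6 genes described here were listed by name: Rgs1, Rgs2, Rgs3, Rgs10, Rgs14 and Rgs16, of 32285 genes in the RNA table. Their loci, each gene with 10 kb on either side, held 70 of the 148283 open-chromatin peaks deposited by the authors.

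The cells were marrow T cells, taken on day 14 after allogeneic bone marrow transplantation. Donors were C3H.SW mice, and every recipient was a C57BL/6 mouse given 5000000 of their marrow cells, 500000 of their CD4 T cells and 500000 of their CD8 T cells. The alloBMT group had the transplant alone, and the PT-Cy group also had cyclophosphamide, an alkylating drug used after transplantation against graft-versus-host disease, at 50 mg/kg on days 3 and 4. Each group's marrow was pooled from 4 mice, and its CD4 and CD8 T cells were sorted by flow cytometry and read on the 10x Multiome platform, which takes RNA and accessible chromatin (ATAC) from the same nucleus. Each group thus had 1 library per assay, and the labels do not say whether the sorted T cells came from donor or host.

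As no group has a second library, differences have no replicate check, no test was run and no p-value is given. Paired values give alloBMT first, and ratios are PT-Cy over alloBMT. Every interval is a 95% interval of counting error, which leaves out the spread between mice and between cells. The intervals are exact, except those of differences between CD4 and CD8 ratios, which are normal approximations. RNA was analysed in the CD4 set alone, with 926 alloBMT and 284 PT-Cy cells and medians of 2750 and 3889 UMIs (unique molecules) per cell. Accessibility covered those cells and 1865 and 512 CD8 cells, with medians of 6874 and 4090.5 counts per CD4 cell and 7841 and 4615 per CD8 cell. The 2 libraries shared 2 of 3587 cell barcodes, and none in the CD4 set.

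All 11 T cell identity genes were detected in the CD4 set, among them Cd4 in every cell, while Cd8a had 0 UMIs, a pattern set by the choice of the cells. The 11 summed to 8708 CPM in alloBMT and 6594 in PT-Cy, with a median log2 ratio of -0.31, so their sum was lower in PT-Cy beside Rgs1, Rgs3 and Rgs16. Cd247 had a ratio of -1.04, Cd3g of -0.91 and Cd4 of -0.68, and their part in the RGS values was not tested. Cd8b1, the other CD8 chain, stood at 100 CPM in alloBMT and 131 in PT-Cy. For RNA, CPM is UMIs of a gene relative to all UMIs of the same library, or of the cluster or subset of its cells described. The 6 red cell genes summed to 211 and 853 CPM. The 12 neutrophil and monocyte genes summed to 41.3 and 305 CPM. The 8 B and plasma cell genes summed to 23.4 and 80.7 CPM, with 2 of the 8 at 0 UMIs, and the 8 genes of NK cells, dendritic cells and megakaryocytes to 6.61 and 41.1 CPM, with Pf4 at 0. These markers moved with the groups, and their part in the results was tested only by leaving out the cells that carry Hbb-bs, S100a9 or Cd8b1.

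Sequence was available in the RefSeq promoter table (GRCm38.p6, 250 bases before to 50 after a transcription start) for 4 of the 6 genes. The windows of Rgs16, Rgs2 and Rgs10 each lay whole inside a deposited peak, and both windows of Rgs3 overlapped none. The 3 windows are shown because they lie inside peaks. The peak over the Rgs16 window differed between the CD4 libraries beyond counting error, and those over the Rgs2 and Rgs10 windows did not. Capitals mark matches to the motifs searched, and each window is written 5′ to 3′ on the strand of the gene.
Rgs16, chr1:153740103-153740402, plus strand: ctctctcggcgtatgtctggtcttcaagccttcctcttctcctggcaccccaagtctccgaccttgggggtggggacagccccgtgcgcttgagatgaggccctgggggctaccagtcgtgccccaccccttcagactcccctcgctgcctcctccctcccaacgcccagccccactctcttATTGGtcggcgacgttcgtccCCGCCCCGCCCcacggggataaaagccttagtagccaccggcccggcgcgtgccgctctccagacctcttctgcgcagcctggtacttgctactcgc
Rgs2, chr1:144004100-144004399, minus strand: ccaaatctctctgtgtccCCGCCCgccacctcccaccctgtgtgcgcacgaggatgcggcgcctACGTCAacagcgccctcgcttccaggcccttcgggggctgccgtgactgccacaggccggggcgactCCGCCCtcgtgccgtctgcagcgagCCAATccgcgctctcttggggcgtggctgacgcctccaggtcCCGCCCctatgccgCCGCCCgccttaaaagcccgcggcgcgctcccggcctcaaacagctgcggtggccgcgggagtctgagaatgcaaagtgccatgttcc
Rgs10, chr7:128418123-128418422, minus strand: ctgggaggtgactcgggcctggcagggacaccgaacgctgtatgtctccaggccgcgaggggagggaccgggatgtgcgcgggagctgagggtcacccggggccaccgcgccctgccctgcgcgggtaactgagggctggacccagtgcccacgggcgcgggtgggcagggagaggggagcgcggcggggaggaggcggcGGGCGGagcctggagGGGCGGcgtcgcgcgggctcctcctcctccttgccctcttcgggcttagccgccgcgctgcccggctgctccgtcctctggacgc
The search took 8 motifs on both strands, 2 of them (the GC box GGGCGG and the CCAAT box CCAAT) added after the windows had been seen. The Rgs16 window held 2 GC boxes that overlap by 1 base and 1 CCAAT box on the complementary strand. The Rgs2 window held 4 GC boxes, 1 CCAAT box and 1 cAMP response element core TGACGT, on the complementary strand 186 bases before the start. The Rgs10 window held 2 GC boxes. The NFAT core GGAAA, the AP-1 motif TGANTCA, the nuclear receptor half-site AGGTCA, the RUNX motif TGTGGT and the TCF and LEF motif CTTTGA had no match in the 3 windows. Of 32851 promoter windows, 61.3% held the NFAT core, 7.81% the AP-1 motif, 7.51% TGACGT, 16.3% AGGTCA, 16.8% TGTGGT, 16% CTTTGA, 35.7% a GC box and 37.4% a CCAAT box. GC content was 66% at Rgs16, 70% at Rgs2 and 76% at Rgs10, against a median of 52.7% over all windows.

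The first question was how RNA of these genes differed between the CD4 T cells of the 2 groups. Rgs16 and Rgs1 were lower after PT-Cy by more than 2-fold, Rgs3 was lower by a smaller amount, and Rgs2, Rgs10 and Rgs14 did not differ beyond counting error. Of the 5 members whose libraries summed to 100 UMIs or more, 2 lay 2-fold or more lower and 0 lay 2-fold or more higher. That many UMIs were found for 6285 genes, of which 2.88% lay as far below and 4.93% as far above, around a median log2 ratio of 0.025. The members were chosen with earlier results of these data known, so their counts past 2-fold are not independent of that choice. The plot of ratios shows the 3 measures of each gene side by side.

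**Figure D1:**
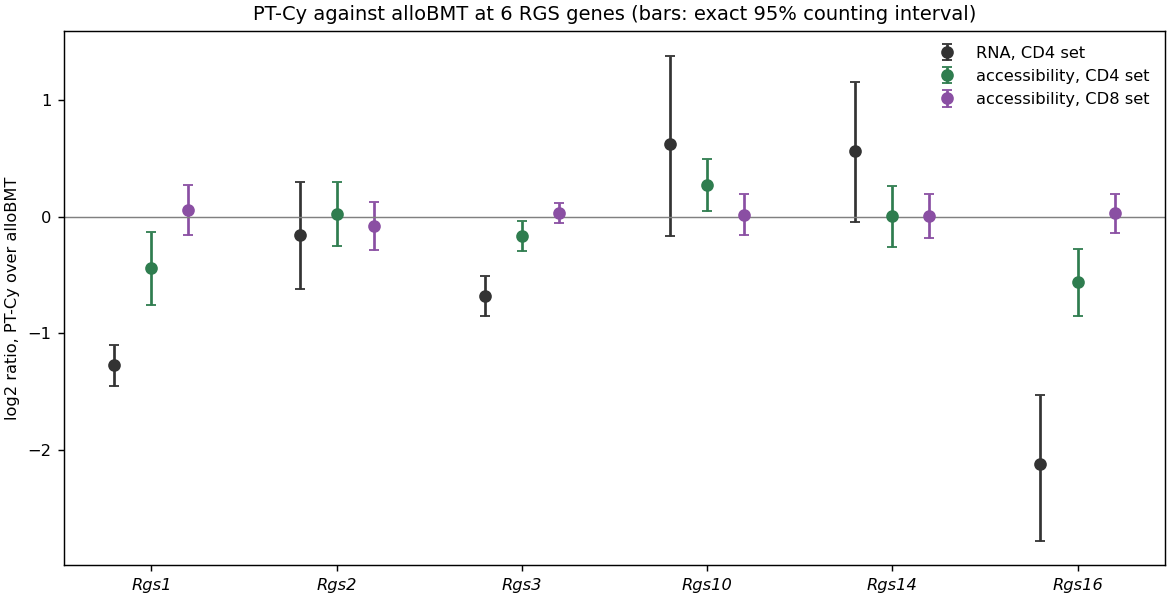
log2 ratio of PT-Cy to alloBMT for each of the 6 genes, as RNA in the CD4 set and as accessibility within 10 kb in the CD4 and CD8 sets; points are ratios of summed counts and bars are exact 95% counting intervals. Rgs16 has the lowest RNA ratio, -2.12, and Rgs1 and Rgs16 have CD4 accessibility ratios of -0.44 and -0.56, while all 6 CD8 intervals include 0.

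Rgs16, a short RGS protein that acts on Gi and Gq subunits and is induced when T cells are activated, had 261 UMIs or 86.2 CPM in alloBMT and 25 UMIs or 19.8 CPM in PT-Cy. It was 4.36-fold lower in PT-Cy (2.89 to 6.86). Only 0.255% of the 6285 genes had a lower ratio. Without the cells that carried an Hbb-bs or S100a9 UMI the log2 ratio was -2.10, and without the cells that carried a Cd8b1 UMI it was -2.98.

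The PT-Cy cells with a Cd8b1 UMI held most of the Rgs16 molecules of that library. The 91 such cells had 16 Rgs16 UMIs, 34.9 CPM (19.97 to 56.7), and the 193 others had 9 UMIs, 11.2 CPM (5.11 to 21.2). In alloBMT the 195 cells with a Cd8b1 UMI had 80.7 CPM (62.0 to 103) and the 731 without had 88.1 CPM (76.3 to 101), which do not differ beyond counting error. In PT-Cy the cells with a Cd8b1 UMI stood 3.13-fold above the others (1.30 to 8.03), beyond counting error, and Rgs2 was 1.82-fold higher in them (1.05 to 3.18). Cells with a Cd8b1 UMI were deeper, with medians of 3118 against 2706 UMIs in alloBMT and 4381 against 3414 in PT-Cy, and the part of depth or of CD8 cells in these values was not tested.

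Rgs1, which restrains migration towards chemokines and sphingosine 1-phosphate and is abundant in lymphocytes held in tissues, had 1770 UMIs or 585 CPM in alloBMT and 305 UMIs or 241 CPM in PT-Cy. The level in PT-Cy was 2.42-fold lower (2.14 to 2.74), and 1.38% of the tested genes had a lower ratio. The log2 ratio of Rgs1 was -1.28, against -1.38 without the cells with an Hbb-bs or S100a9 UMI. Rgs3, a regulator of Gi and Gq whose large gene gives several isoforms, had 1305 UMIs or 431 CPM and 340 UMIs or 269 CPM. That is 1.60-fold lower (1.42 to 1.81), with 7.08% of tested genes below it. Counts per gene do not separate the isoforms.

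Rgs2, which acts mainly on Gq, had 152 and 57 UMIs, 50.2 CPM in alloBMT and 45.1 in PT-Cy, a log2 ratio of -0.15 (-0.62 to 0.29). Rgs14, which carries a motif that binds inactive Gi subunits beside its RGS domain, had 65 and 40 UMIs, 21.5 and 31.6 CPM, a log2 ratio of 0.56 (-0.046 to 1.15). Rgs10, a small family member and a regulator of Gi, had 39 and 25 UMIs, 12.9 and 19.8 CPM, a log2 ratio of 0.62 (-0.17 to 1.38). The intervals of all 3 include 0. At 64 UMIs in all, Rgs10 stayed under the minimum of 100 and is not in the count of members above.

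The share of cells with a UMI was compared after thinning every cell to 1981 UMIs. This kept 830 and 259 cells and dropped the 96 and 25 that were shallower. The alloBMT share of Rgs1 was 56.6% (53.2 to 60.0), against a PT-Cy share of 33.2% (27.5 to 39.3). For Rgs3 they were 49.9% (46.4 to 53.3) and 38.2% (32.3 to 44.4). For Rgs16 the shares were 13.6% (11.4 to 16.1) and 2.32% (0.855 to 4.97, 6 cells). All 3 pairs of intervals stand apart, as the bars of detection show. Rgs2 had shares of 9.16% and 10.4%, Rgs14 4.58% and 7.72% and Rgs10 2.53% and 3.86%, with overlapping intervals in each case.

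**Figure D2:**
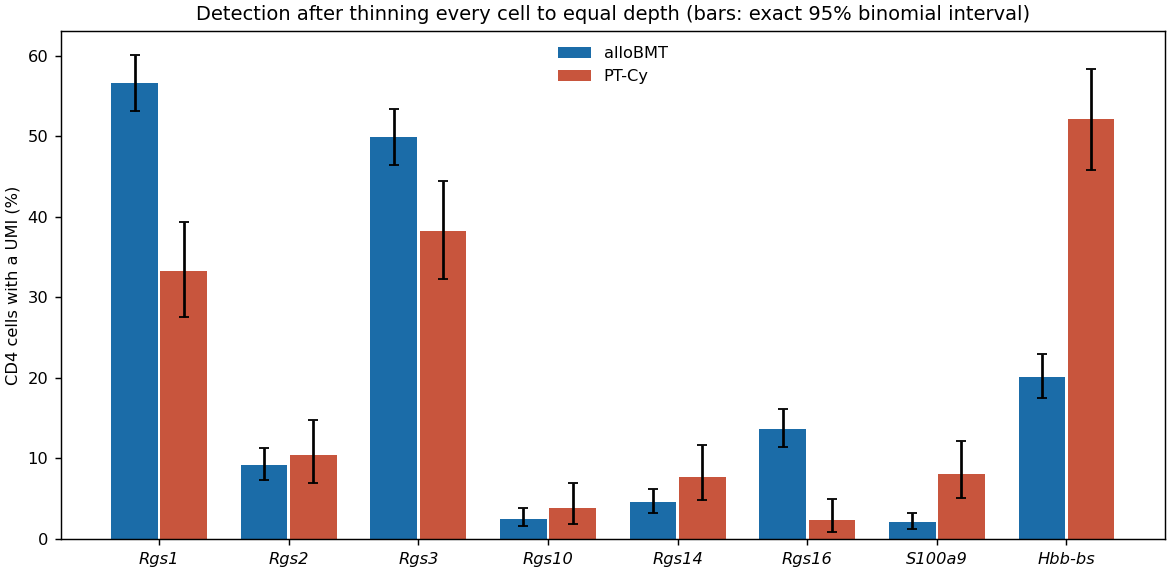
Percent of CD4 cells with at least 1 UMI of each gene after thinning each cell to 1981 UMIs, in alloBMT (830 cells) and PT-Cy (259 cells); bars start at 0 and whiskers are exact 95% binomial intervals. Rgs1, Rgs3 and Rgs16 are lower in PT-Cy, while S100a9 and Hbb-bs, genes of neutrophils and red cells that T cells should lack, are higher there (8.11% against 2.05% and 52.1% against 20.1%).

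RNA set free from other cells can give such UMIs, and no RNA of a cell type that should lack these RGS genes was analysed here. In the same thinned cells S100a9 had shares of 2.05% and 8.11% and Hbb-bs 20.1% and 52.1%. All 6 PT-Cy shares lie below that of Hbb-bs, and those of Rgs16, Rgs10 and Rgs14 also below that of S100a9, so at this depth these last 3 cannot be told apart from background. The PT-Cy interval of Rgs2 (6.98 to 14.8%) overlaps that of S100a9 (5.09 to 12.1%), so Rgs2 cannot be told apart from background either. In alloBMT the interval of Rgs10 (1.57 to 3.84%) overlaps that of S100a9 (1.20 to 3.26%), so the same holds for Rgs10 there. Before thinning the shares were 65.8% and 48.9% for Rgs1, 66.3% and 57.7% for Rgs3, 21.3% and 7.39% for Rgs16, 13.7% and 15.5% for Rgs2, 6.80% and 13.0% for Rgs14 and 3.89% and 7.75% for Rgs10.

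Cells that carried Rgs1 also carried less of it in PT-Cy. In the thinned cells with a Rgs1 UMI the mean was 2.15 UMIs in alloBMT and 1.36 in PT-Cy. At least 3 UMIs were found in 126 alloBMT cells (15.2%) and 8 PT-Cy cells (3.09%), and the highest cell had 10 and 4. Rgs3 had means of 1.65 and 1.31 UMIs in positive cells, and Rgs16 had 1.17 in both libraries. The variance of Rgs1 over cells was 2.12 times its mean in alloBMT and 1.32 times in PT-Cy, against 1.48 and 1.12 for Rgs3.

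The authors' 5 CD4 clusters divided the libraries unevenly. The alloBMT cells fell 374, 320, 42, 156 and 34 into clusters 0 to 4, and the PT-Cy cells 4, 0, 238, 11 and 31. Levels are given for the 7 combinations with at least 25 cells, namely all 5 clusters of alloBMT and clusters 2 and 4 of PT-Cy. The sources used here do not say how the clusters were made, so differences between them are descriptions.

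**Figure D3:**
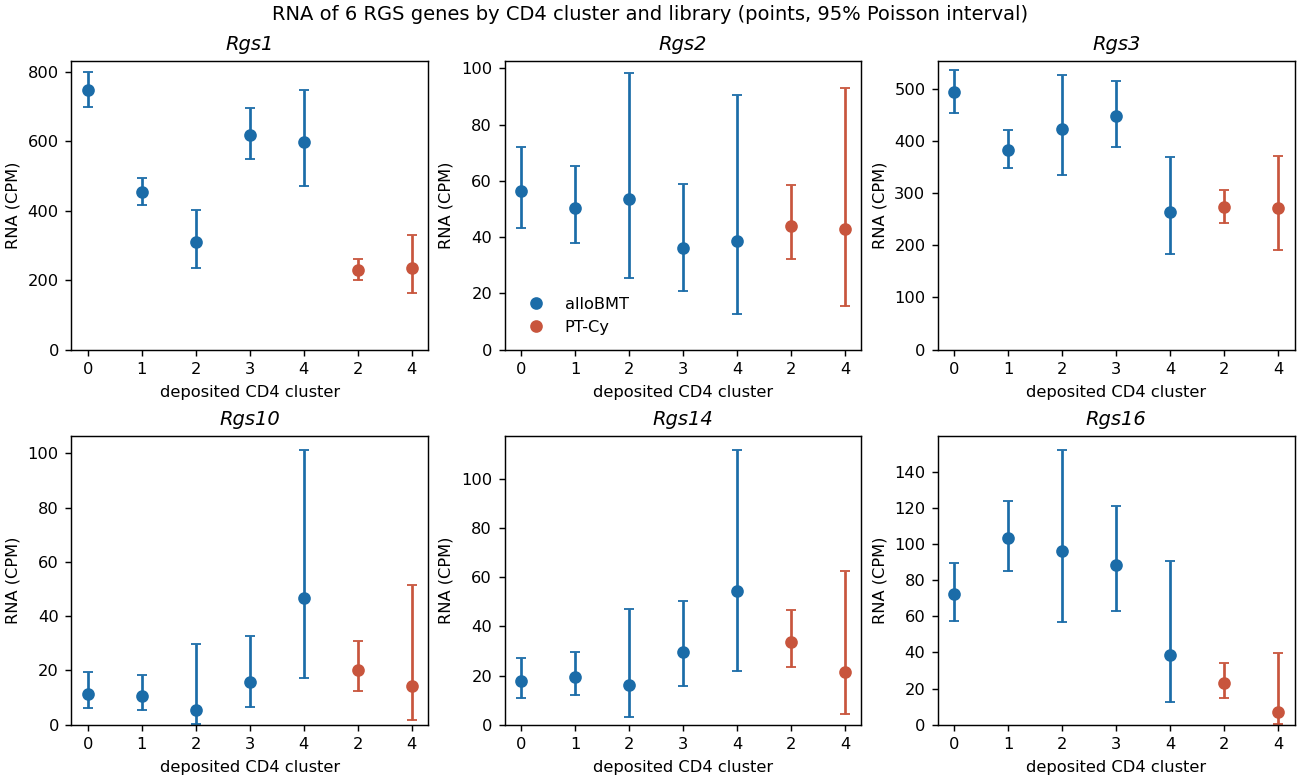
RNA level in CPM of each of the 6 genes in each deposited CD4 cluster of each library with at least 25 cells; points are summed counts and bars are exact 95% Poisson intervals, and each panel has its own axis from 0. Rgs1 runs from 310 to 746 CPM over the alloBMT clusters and stands at 229 and 235 CPM in PT-Cy.

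Rgs1 had its highest level in alloBMT cluster 0, at 746 CPM (697 to 798). Clusters 3 and 4 followed at 618 (547 to 696) and 597 (471 to 746), then cluster 1 at 453 (415 to 494) and cluster 2 at 310 (235 to 401). Cluster 0 was 1.65-fold above cluster 1 and 2.41-fold above cluster 2, and neither it nor cluster 3 differed from cluster 4 beyond counting error. PT-Cy cells had 229 CPM in cluster 2 and 235 in cluster 4.

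Within cluster 2, which holds most PT-Cy cells and the alloBMT cells with least Rgs1, the log2 ratio of Rgs1 was -0.44 (-0.85 to 0.0044), from 58 and 240 UMIs. Within cluster 4 it was -1.35 (-1.98 to -0.74), from 77 and 33 UMIs. With the 2 clusters given equal weight the log2 ratio was -0.97, less than 2-fold, against -1.28 in the whole set.

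Rgs16 was flatter over the alloBMT clusters, with 72.2, 103, 96.2, 88.3 and 38.8 CPM in clusters 0 to 4. Cluster 1 was 2.66-fold above cluster 4 and above cluster 0 beyond counting error, and no neighbours in the order of the levels differed. PT-Cy stood at 22.9 CPM in cluster 2 and 7.12 in cluster 4, the latter from 1 UMI. Within cluster 2 the log2 ratio was -2.07 (-3.01 to -1.10), from 18 and 24 UMIs, close to that of the whole set. In cluster 4, with 5 and 1 UMIs, no difference was detectable. After thinning, 1 of 31 alloBMT cells there had a UMI (interval 0.082 to 16.7%) and 0 of 29 PT-Cy cells (interval 0 to 11.9%). In cluster 2 the thinned shares were 10.3% (2.87 to 24.2, 4 cells) and 2.78% (1.03 to 5.95, 6 cells), with overlapping intervals.

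Rgs3 had 493, 383, 422, 449 and 264 CPM in alloBMT clusters 0 to 4, with cluster 4 below each of the others beyond counting error. Its PT-Cy levels were 273 CPM in cluster 2 and 271 in cluster 4. Within cluster 2 its log2 ratio was -0.63 (-0.99 to -0.25), and within cluster 4 it was 0.038 (-0.67 to 0.75). The difference between these clusters was not tested.

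Only Rgs1 and Rgs3 reached 100 UMIs within cluster 2, where 0 of these 2 was 2-fold lower or higher, and only Rgs1 did within cluster 4, where it was 2-fold lower. Of all genes with that many UMIs, 1.76% were lower and 3.97% higher by 2-fold in cluster 2 (2846 genes), and 4.22% lower and 1.81% higher in cluster 4 (498 genes). Red cell genes summed to 155 to 227 CPM over the alloBMT clusters and 591 to 925 CPM over those of PT-Cy. Neutrophil and monocyte genes summed to 24.9 to 57.2 and 92.6 to 315 CPM.

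Rgs10 and Rgs14 were highest in alloBMT cluster 4, at 46.5 CPM from 6 UMIs and 54.3 CPM from 7 UMIs. Cluster 0 had 11.4 and 17.6 CPM and cluster 1 had 10.6 and 19.4 CPM. The intervals of the ratios of clusters 0 and 1 to cluster 4 exclude 0 on the log2 scale for both genes, and their PT-Cy cluster 4 levels were 14.2 and 21.4 CPM. Rgs2 ranged from 36.2 to 56.3 CPM over the alloBMT clusters and had 43.9 and 42.7 CPM in PT-Cy, with no pair of alloBMT clusters apart beyond counting error.

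The genes whose levels ran most like those of a member over the 7 combinations were found by Pearson r of log2(CPM + 10) among 4020 genes. The points share libraries, and the 2 from PT-Cy weigh on every r, so these are descriptions. For Rgs16 they were Dusp2, Rbm39, Cd7, Slc22a15 and Tmem192, with r from 0.986 to 0.995. Cd7, a T cell surface protein, had a log2 ratio of -2.03, near that of Rgs16. For Rgs1 they were Avl9, Wdr45b, Dock8, Cmss1 and Impact (0.941 to 0.966), for Rgs3 they included Coq10b, Rundc3b, Sap130 and Ucp2 (0.964 to 0.981), and for Rgs14 Zfp638, Ankfy1, Zbtb20, Rnf213 and Bod1l (0.926 to 0.963). For Rgs2, whose levels overlap throughout, they were Arih1, Uqcc1, Map3k7, Cox11 and Nup50 (0.879 to 0.931). Between members, r was 0.808 for Rgs3 with Rgs16, 0.609 for Rgs1 with Rgs16 and 0.964 for Rgs10 with Rgs14, the last from few UMIs. The lowest values were -0.76 for Rgs2 with Rgs14, -0.68 for Rgs2 with Rgs10, -0.65 for Rgs3 with Rgs10 and -0.63 for Rgs3 with Rgs14. Each of these pairs holds Rgs10 or Rgs14, whose levels rest on as few as 1 and 3 UMIs in a combination.

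Most of the other genes listed for an RGS domain gave little RNA. Akap10 (185 and 186 CPM), Snx13 (105 and 114) and Axin1 (102 and 112) stood above Rgs16 in both libraries. Of 22, 3 had at least 100 UMIs, and none of these was past 2-fold (median log2 ratio 0.12): Axin1 at 0.13, Snx13 at 0.12 and Akap10 at 0.010. A further 7 had 0 UMIs in both libraries, among them Rgs7bp and Rgs9bp, which encode binding partners of RGS proteins without an RGS domain. Rgs19 had 55 and 26 UMIs and Rgs12 had 31 and 23. Axin2, a target and brake of Wnt signalling picked here after its values were seen, had 26 and 40 UMIs, 8.59 and 31.6 CPM, a log2 ratio of 1.88 (1.13 to 2.65). Rgs8, also picked after its values were seen, went the other way, with 25 and 2 UMIs and a ratio of -2.38 (-5.51 to -0.38).

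Some receptors upstream of the RGS proteins were higher in PT-Cy. Of 28 Gi-coupled chemoattractant and lipid receptor genes, 11 had at least 100 UMIs, with a median log2 ratio of 0.32. Of these, 3 were past 2-fold higher and 0 lower, against the 4.93% of all tested genes given above. The list was chosen with earlier results of these data known, and the part of other cell types in its values was not tested. Gpr183, the oxysterol receptor, had 47.6 and 187 CPM, a log2 ratio of 1.98 (1.67 to 2.29). S1pr1, the sphingosine 1-phosphate receptor through which T cells leave tissues, had 18.5 and 72.8 CPM, also 1.98 (1.48 to 2.48). Ccr2 had a ratio of 1.35 (1.15 to 1.56) and S1pr4 of 0.93 (0.53 to 1.33).

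The G protein subunits that RGS proteins act on or release showed no common direction. Of 8 alpha subunit genes with at least 100 UMIs (of 13), 1 was 2-fold lower and 0 higher, beside 2.88% and 4.93% of all tested genes, with a median of 0.097. Gna12 had -1.10, Gnaq, the Gq subunit itself, 0.997 (85.2 and 170 CPM), Gna15 0.92 and Gna13 0.46. Of 6 beta and gamma genes (of 16) none passed 2-fold and the median was -0.047, with Gnb4 and Gng2 at -0.71, Gnb2 at 0.48 and Gnb1 at 0.41.

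Genes of the Gs and cAMP arm had 1 of 10 lower and 0 higher (of 16 listed; median -0.21), beside the same 2.88% and 4.93%, namely the proton-sensing receptor gene Gpr65 at -1.07, with Adcy7 at -0.57, Ptger2 at -0.43 and Gpr174 at -0.34. Of 5 receptor kinase and arrestin genes with at least 100 UMIs, 0 passed 2-fold (median -0.085), with Grk5 at -0.48, Grk6 at 0.43, Arrb2 at 0.31 and Grk4 at -0.27. Of 12 effector and exchange factor genes (of 20), 1 was higher and 0 lower (median 0.13), where 4.93% of all tested genes were higher. That gene was Plcb4, a phospholipase driven by Gq, at 1.89 (1.59 to 2.21), beside Prex1 at -0.74, Arhgef12 at 0.66 and Rasgrp2 at 0.34.

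The second question was whether chromatin at these genes differed between the groups in CD4 and in CD8 T cells. Rgs16 and Rgs1 were the least accessible in PT-Cy relative to alloBMT in the CD4 set, and no locus differed beyond counting error in the CD8 set. None of the 6 loci passed 1.5-fold in either set. Of all loci that reached 100 counts, 2.21% lay 1.5-fold or more lower and 3.14% higher in the CD4 set (14381 loci), and 1.9% lower and 2.01% higher in the CD8 set (15741 loci). From here on CPM is ATAC counts in peaks, scaled to the counts in all peaks of the same library and set, or of the same cluster in it. Locus and cluster values are summed within 10 kb, and values of a single peak are not.

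The Rgs16 locus (gene at chr1:153740353-153745468, 5 peaks) had, in CD4 cells, 114 CPM in the alloBMT library and 77.3 in the PT-Cy one, from 794 and 119 counts. Its log2 ratio was -0.56 (-0.85 to -0.28), and 2.58% of loci had a lower one. The CD8 values were 108 and 110, a log2 ratio of 0.029 (-0.14 to 0.20). CD4 minus CD8 the log2 ratios differed by -0.59, with a counting interval of -0.91 to -0.26, and there is no replicate to test it. Without the CD4 cells that carried a Cd8b1 UMI the CD4 ratio was -0.54. With only the peaks within 2 kb of the gene it was -0.77, past 1.5-fold, and -0.035 in CD8 cells.

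The Rgs1 locus (chr1:144244669-144249104, 9 peaks) had 88.2 and 65.0 CPM in CD4 cells, from 615 and 100 counts, a log2 ratio of -0.44 (-0.76 to -0.13). In CD8 cells the values were 66.6 and 69.3, a ratio of 0.057 (-0.16 to 0.27). Within alloBMT the locus was 1.32-fold more accessible in CD4 than in CD8 cells (log2 0.40, 0.26 to 0.55), more than at 98.5% of loci. Within PT-Cy the 2 sets did not differ beyond counting error (-0.092, -0.45 to 0.26). CD4 minus CD8 the treatment ratios differed by -0.50 (-0.87 to -0.13), untested as at Rgs16.

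The other 4 loci differed less. Rgs3 (chr4:62559835-62703019, 35 peaks) had 417 and 371 CPM in CD4 cells, a ratio of -0.17 (-0.30 to -0.037), and 408 and 417 in CD8 cells (0.031), with a difference between the sets of -0.20 (-0.35 to -0.042). Rgs10 (chr7:128373621-128419506, 13 peaks) had 118 and 142 in CD4 cells, a ratio of 0.27 (0.050 to 0.49), and 102 and 103 in CD8 cells (0.017). With TMM scaling on all peaks the Rgs10 ratio in CD4 cells was 0.075. Rgs2 (chr1:143999338-144004149, 3 peaks) had 85.6 and 87.1 in CD4 cells (0.025) and 75.8 and 71.8 in CD8 cells (-0.078). Rgs14 (chr13:55369732-55384687, 5 peaks) had 97.4 and 97.5 in CD4 cells (0.0016) and 89.0 and 89.5 in CD8 cells (0.0078). Positions are those of GRCm38.p6, and the 10 kb flanks can hold other annotated genes.

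Single peaks showed where the counts fell. Of the 70 peaks, 41 had at least 100 counts over all 4 pairs of set and library, and 23 in the CD4 set alone. Of these 23, 1 was at least 2-fold lower and 0 higher in PT-Cy, beside 3.82% lower and 0.751% higher among 19971 peaks. In the CD8 set 0 of 34 were lower and 1 higher, beside 3.27% and 1.01% of 35872.

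The peak over the Rgs16 promoter window shown above (chr1:153739538-153740535) had 269 and 31 counts in CD4 cells, 38.6 and 20.1 CPM. Its log2 ratio was -0.94 (-1.52 to -0.40) in CD4 and -0.068 (-0.38 to 0.23) in CD8 cells, where it had 36.3 and 34.6 CPM. The difference between the sets was -0.87 on the log2 scale, with a counting interval of -1.48 to -0.26.

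At Rgs1 the peak with most counts lies over the upper-coordinate end of the gene (chr1:144248687-144249452). It had 292 and 41 counts in CD4 cells, 41.9 and 26.6 CPM, a ratio of -0.65 (-1.16 to -0.18). In CD8 cells it had 31.0 and 35.3 CPM, a ratio of 0.19 (-0.12 to 0.49). The other 8 Rgs1 peaks had under 100 counts each in the CD4 set. The promoter peak of Rgs2 (chr1:144003408-144004630), also shown above, had 57.2 and 56.5 CPM in CD4 cells, a ratio of -0.017 (-0.37 to 0.32), and -0.13 in CD8 cells. The plot of peaks by distance sets these loci beside each other.

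**Figure D4:**
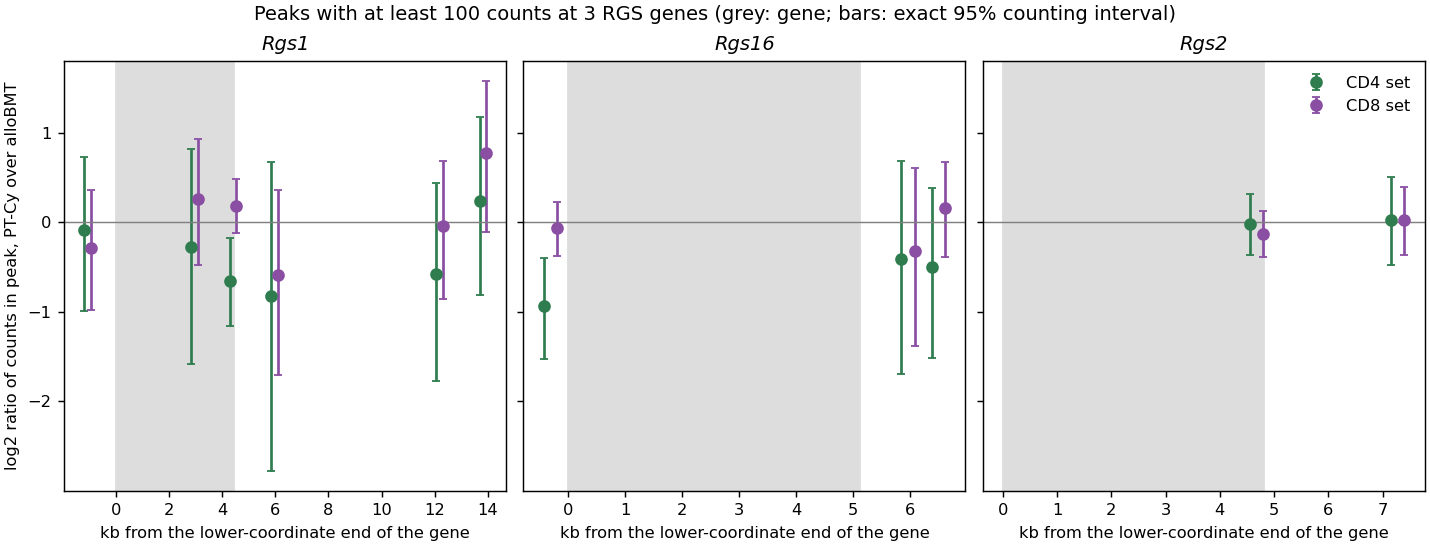
log2 ratio of PT-Cy to alloBMT of each peak with at least 100 counts over both sets and libraries at Rgs1, Rgs16 and Rgs2, leaving out peaks that overlap another annotated gene, against distance in kb from the lower-coordinate end of the gene (grey band), with CD8 points shifted to the right of the CD4 points to keep them apart; bars are exact 95% counting intervals. The peak over the Rgs16 start (-0.94) and the peak over the upper end of Rgs1 (-0.65) lie below 0 in CD4 cells, and the CD8 intervals of the same peaks include 0.

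Rgs3 held peaks that went both ways. The peak at chr4:62679062-62679538 had 112 and 11 counts in CD4 cells, 16.1 and 7.15 CPM, a ratio of -1.17 (-2.21 to -0.27), and -0.12 (-0.57 to 0.30) in CD8 cells. The peak at chr4:62663278-62664124, which overlaps both Rgs3 and Gm52741, had 95 and 38 counts in CD8 cells, 5.72 and 12.2 CPM, a ratio of 1.09 (0.51 to 1.65), and 0.83 (0.0052 to 1.60) in CD4 cells. A peak at chr4:62582745-62584145 was higher in both sets, by 0.59 (0.13 to 1.02) and 0.57 (0.25 to 0.88). The peak with most counts (chr4:62629481-62630659) had -0.16 (-0.55 to 0.21) in CD4 and -0.0046 in CD8 cells. No sum over the locus shows these opposite peaks.

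The Rgs10 promoter peak (chr7:128417086-128418755) had 27.0 and 27.9 CPM in CD4 cells, a ratio of 0.052 (-0.46 to 0.54), and 0.20 in CD8 cells. The peak with most counts there (chr7:128383035-128384495) had 0.076 and -0.15. At Rgs14 the peak over the lower-coordinate end of the gene (chr13:55368838-55370496) had a ratio of 0.26 (-0.14 to 0.64) in CD4 cells and -0.0092 in CD8 cells. A second one with more counts overlaps the neighbour Lman2 (chr13:55361795-55363158), with -0.22 (-0.61 to 0.15) and 0.018.

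Over clusters, Rgs16 accessibility ran from 96.5 to 118 CPM in the 5 alloBMT CD4 clusters. It stood at 78.3 (64.1 to 94.8) and 73.4 (36.6 to 131) in PT-Cy clusters 2 and 4. In alloBMT clusters 2 and 4 it was 108 (79.9 to 142) and 118 (83.2 to 161), and these intervals overlap those of PT-Cy. In CD8 cells it ran from 96.0 to 126 in 8 alloBMT clusters and from 86.7 to 119 in 3 PT-Cy clusters. Rgs1 ran from 71.1 to 96.8 in the alloBMT CD4 clusters. It was 57.4 (45.3 to 71.8) in PT-Cy cluster 2 but 120 (71.2 to 190) in PT-Cy cluster 4, from 18 counts. The alloBMT value in cluster 2 was 96.8 (70.6 to 130), and its interval overlaps that of PT-Cy. In cluster 4, where Rgs1 RNA was lower in PT-Cy, the alloBMT accessibility was 71.1 CPM (45.1 to 107), which overlaps the PT-Cy value.

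**Figure D5:**
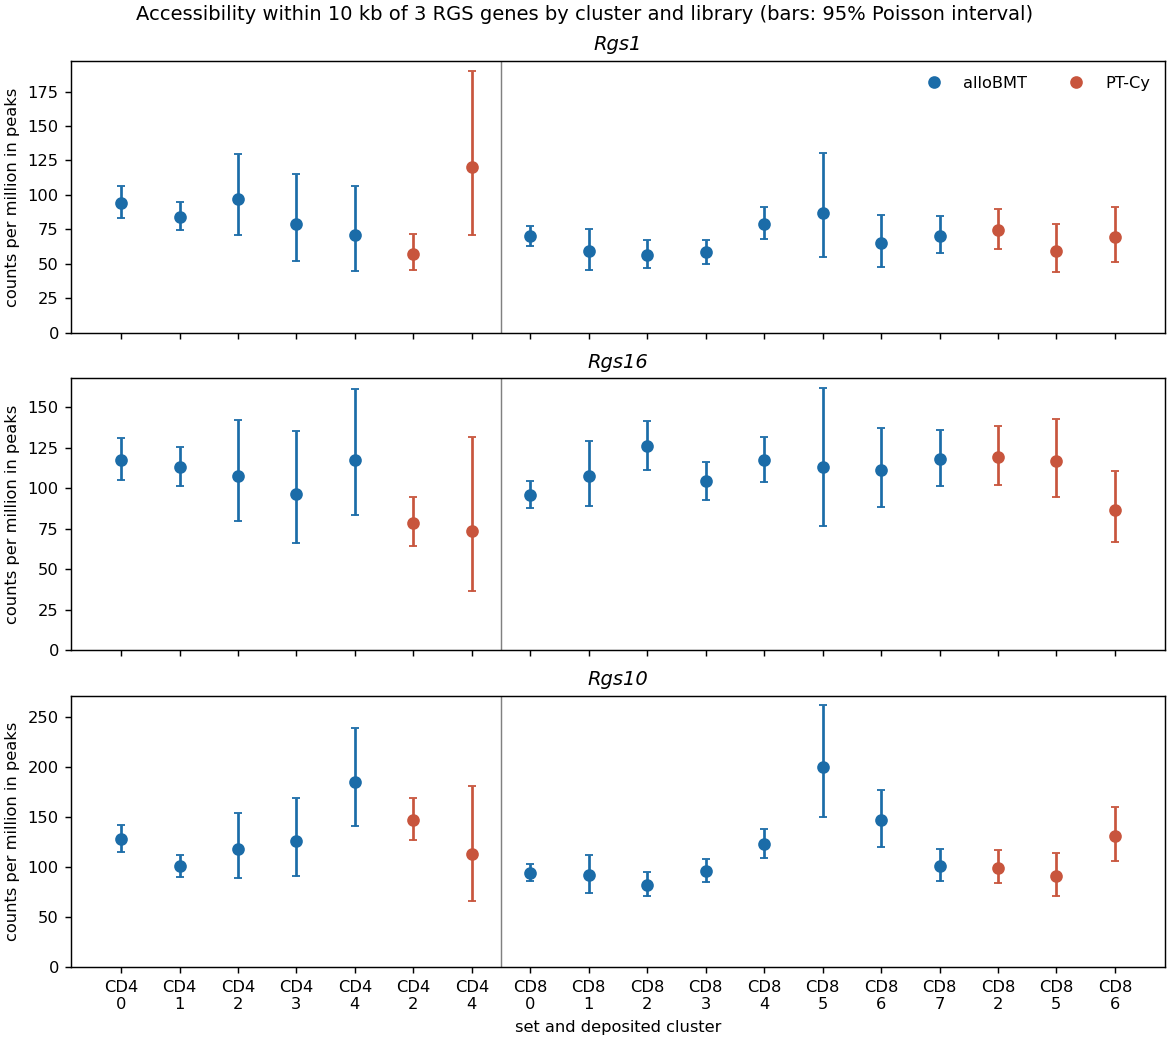
Accessibility within 10 kb of Rgs1, Rgs16 and Rgs10, in CPM, for each deposited CD4 and CD8 cluster of each library with at least 25 cells; bars are exact 95% Poisson intervals and axes start at 0. Rgs10 stands highest in alloBMT CD4 cluster 4 (186) and CD8 cluster 5 (200), and cluster numbers are those of each set.

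Rgs10 accessibility varied more between the alloBMT clusters than that of the other 5 genes, in both sets. Among alloBMT CD8 cells cluster 5 had 200 CPM (150 to 262), cluster 6 had 147 (121 to 177), cluster 4 had 123 (109 to 138), and the other 5 had 82.5 to 102. Among alloBMT CD4 cells cluster 4 had 186 (142 to 239) against 101 to 128 in the other 4. Rgs10 RNA was also highest in that cluster, but from only 6 UMIs. PT-Cy CD4 cells had 147 (127 to 169) in cluster 2 and 113 (66.1 to 182) in cluster 4. The ratio of highest to lowest alloBMT cluster was 1.84 in the CD4 set and 2.43 in the CD8 set for Rgs10, and 1.22 and 1.31 for Rgs16. Between the 2 PT-Cy CD4 clusters the same ratio was 1.30 for Rgs10 and 2.09 for Rgs1.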

How the data were processed

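Both deposited tables, RNA per gene and ATAC per peak, give each cell's counts as whole numbers that were not normalized. The tools named in the submitters' processing notes are Cell Ranger ARC 1.0.1 and MACS2, with no roles or settings. The sources used here do not state cell filters, peak settings, doublet treatment or whether an ATAC count is a fragment or a cut site, and no doublet caller was run. Those notes name GRCh38, a human build, but the genes are mouse. Of 43766 ends of protein-coding genes in GRCm38.p6, 31.2% lay in a deposited peak, against 6.53% and 6.16% after shifts of 20000 and 200000 bases, so GRCm38.p6 positions were used. Set and cluster came from the deposited per-cell table, of whose 58 columns 56 were not used.

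Counts were summed per library and set or cluster and scaled to the total (3027967 and 1264107 UMIs in the CD4 set, 6974362 and 1538967 ATAC counts in CD4 cells, 16605930 and 3117872 in CD8 cells, alloBMT first). Ratios have exact conditional binomial intervals, levels Poisson and shares Clopper-Pearson ones, all at 95% and for counting error only; differences of ratios have normal ones. A count of at least 100 and 2-fold (1.5-fold for loci) were the size rule. Clusters needed 25 cells. Thinning went to the 10th percentile of UMIs. Beside the 6 members, each list names up to 4 genes with the largest ratio, other RGS genes need 100 UMIs, likeness takes 5 genes with at least 200 UMIs, and each locus names its promoter peak, its peak of most counts and those past 2-fold. A few genes and peaks that this rule names are not reported here. The members and 13 lists were chosen with earlier results of these data known. The ratio script was tested on simulated counts. Alternatives used edgeR 4.0.16 and DESeq2 1.42.0 scaling in R 4.3.3. Other steps ran in Python 3.11.15 with scipy 1.17.1, numpy 2.4.6, matplotlib 3.10.9 and pandas 2.3.3.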

Additional observations from a re-analysis of the deposited data

Results flagged for a closer look

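Accessibility at the Rgs16 locus was lower in PT-Cy than in alloBMT in the CD4 set (log2 ratio -0.56, -0.85 to -0.28) and not in the CD8 set (0.029, -0.14 to 0.20), and of the 6 loci it alone had ratios of opposite sign whose counting intervals do not overlap. The difference was -0.59, with a counting interval of -0.91 to -0.26, and with 1 library per group it was not tested. It was larger at the promoter peak, where the CD4 ratio was -0.94 and the difference -0.87 (-1.48 to -0.26). Differences of the same kind, also untested, were -0.50 (-0.87 to -0.13) at Rgs1 and -0.20 (-0.35 to -0.042) at Rgs3.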

How the results depend on the processing

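Over 210 recomputed values of 47 results, 179 stayed within the counting interval or count limit and 31 moved. A reversal could be counted only for ratios past the size rule, which none of the loci passed, and 0 of those ratios reversed. Smaller ratios could change sign without being counted as reversed. Rgs16 RNA ranged from -2.98 to -2.10 and Rgs1 RNA from -1.41 to -0.97, and accessibility in the CD4 set from -0.94 to -0.51 at Rgs16 and from -0.64 to -0.35 at Rgs1. With clusters 2 and 4 at equal weight, RNA log2 ratios were -0.97 for Rgs1, -0.33 for Rgs3, -0.60 for Rgs10 and -0.36 for Rgs14, the last 2 with the opposite sign to the whole set, and 1 member in place of 2 was 2-fold lower. Without cells with a Cd8b1 UMI (731 and 193 cells left), Rgs16 RNA was -2.98. Without cells with an Hbb-bs or S100a9 UMI (631 and 67 left), Rgs14 RNA was -0.064. The Rgs16 locus in CD4 cells passed 1.5-fold with only peaks within 2 kb (-0.77), and TMM scaling on all peaks took it and the Rgs1 locus past 1.5-fold (-0.75 and -0.64), as did peaks overlapping the gene at Rgs1 (-0.62). That scaling gave the Rgs3 locus -0.36 in CD4 and -0.057 in CD8 cells, and the Rgs10 locus 0.075 in CD4 cells. Peaks within 2 kb gave the Rgs14 locus 0.26 in CD4 cells, and peaks overlapping the gene gave 0.26 there and -0.94 at Rgs16. A minimum of 20 counts gave 4 member peaks 2-fold lower and 2 higher in CD4 cells, and 4 lower and 5 higher in CD8 cells, of 49 and 60 member peaks, where all peaks gave 10.6% lower and 6.42% higher, and 9.52% and 5.53%. The cause of these moves was not tested. TMM on all genes or peaks, removal of Hbb-bs or S100a9 cells, removal of Cd8b1 cells from accessibility and removal of peaks over other genes were chosen after seeing the data. TMM on all features shifted log2 ratios by -0.13 (RNA of the whole CD4 set), 0.057 (cluster 2), -0.036 (cluster 4), -0.20 (CD4 peaks) and -0.088 (CD8 peaks). Rgs2 RNA ranged from -0.56 to 0.18 and has no stable sign. Fewer than 100 UMIs limit Rgs10 in the whole set and, within cluster 4, each gene but Rgs1. No paired analysis was possible because each group holds 1 library per assay, and no library could be left out.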
